A study of Mus musculus with 15 samples.

Results

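Endothelial cells line every blood vessel of a muscle, and a set of 38 genes that mark this lining was followed through skeletal muscle with altered Pdgfrb. The 38 genes were given by symbol, each was found in the deposited tables, and each had a mean normalized count of 10 or more over the 15 samples, as 15389 of the 55536 listed genes did. Muscle was taken from male mice aged 2 months, 5 of them wild-type controls, 5 with Pdgfrb knocked out and 5 with the Pdgfrb allele D489V. The study's design text places both alleles in myogenin-expressing cells and calls D489V constitutively active. Poly(A) RNA of whole muscle was sequenced, so a lower value can mean fewer endothelial cells or less RNA per cell, and these cannot be told apart here. Which muscle was taken, the strain, the line that drove recombination and the preparation batch are not given in the sources used here. The labels number the replicates, and nothing says whether these came from separate litters, so p-values measure the spread between these samples.

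The endothelium is a single layer of cells joined by adherens and tight junctions, and in muscle it forms mostly capillaries that deliver oxygen and fatty acids to the fibres. Its identity is held by transcription factors of the ETS, SOX and basic helix-loop-helix families, and its growth and quiescence by receptors for VEGF and the angiopoietins. Pericytes, which carry PDGFRB, wrap these vessels, and myogenin is a transcription factor of differentiating muscle cells.

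Normalized counts summed to between 29815559 and 36489777 in the 15 samples, and Pdgfrb itself read 1673 to 1848 in controls, 958 to 1628 in knockouts and 820 to 1062 in D489V. The targeted gene was thus lowest in the group that is not labelled knockout, with log2 differences of -0.45 ± 0.13 (SE), limma adjusted p 0.294, for knockout against control, -0.96 ± 0.09 (SE), limma adjusted p 0.00168, for D489V against control and 0.51 ± 0.14 (SE), limma adjusted p 0.0258, for knockout against D489V. The labels were kept as given, and every direction below rests on them. Some libraries stood apart before any endothelial gene was compared. Xist, which male tissue should lack, read 3165 in knockout 3 and no more than 101 elsewhere, although the labels give every mouse as male. Glycam1, a marker of lymph node venules, read 174 to 482 in control 5 and knockouts 3 to 5 and at most 33 elsewhere, and the sum of 10 leukocyte markers was 2983 to 9088 in those 4 libraries and 982 to 1663 in the other 11. D489V 3 held the highest sum of 6 Schwann cell markers, 36472 against 4165 to 10808 elsewhere. The main limma results of the endothelial set are therefore also given without control 5 and knockouts 3 to 5. They are given without D489V 3 and knockout 3 as well. The other gene lists and the ratios to Pecam1 are given with all libraries only, so their dependence on these libraries was not tested.

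All 38 genes were read in every sample, including Pecam1 and Cdh5, the defining markers of the lineage. Tal1 and Lyl1 are also blood cell genes and Cd34 marks other progenitors too. Per kilobase of exon, Cdh5, the cadherin of endothelial adherens junctions, had the highest control level at 1197 ± 203 normalized counts (SD, n = 5), followed by Cldn5 at 939 ± 177 and Pecam1 at 557 ± 64.0. The control values of Cdh5, 983 to 1481, and of Cldn5, 755 to 1214, overlapped. The lowest levels per kilobase were those of Flt4, at 31.0 ± 4.25, and Tal1, at 23.7 ± 7.26. The 38 genes thus covered a wide range of abundance, and the coefficient of variation between controls ran from 10.4% for Cd34 to 56.6% for Lyl1, with a median of 19.3%. The median was 19.1% in knockouts and 13.8% in D489V.

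Promoters are shown for 4 members, Cldn5, Tek, Erg and Flt1. All 4 were lower in knockout than in D489V with most of the set, and none was called against control. Erg encodes one of the ETS factors that read such promoters, and Flt1 kept nearly its control mean in knockouts. The RefSeq table, on GRCm38.p6, matched 18 of the 38 members. Each line gives the 250 bases before the transcript start, 5′ to 3′ on the strand of the gene, with the ETS core GGAA, on either strand as GGAA or TTCC, in capitals.
Cldn5: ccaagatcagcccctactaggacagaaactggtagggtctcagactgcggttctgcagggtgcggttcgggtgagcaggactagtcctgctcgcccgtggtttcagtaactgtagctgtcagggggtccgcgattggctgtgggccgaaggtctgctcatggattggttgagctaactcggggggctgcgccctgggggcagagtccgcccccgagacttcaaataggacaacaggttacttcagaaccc
Tek: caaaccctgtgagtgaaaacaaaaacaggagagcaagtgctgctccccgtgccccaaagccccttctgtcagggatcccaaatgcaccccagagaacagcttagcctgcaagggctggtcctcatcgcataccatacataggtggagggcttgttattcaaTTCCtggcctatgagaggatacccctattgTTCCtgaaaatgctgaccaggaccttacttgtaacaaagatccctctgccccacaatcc
Erg: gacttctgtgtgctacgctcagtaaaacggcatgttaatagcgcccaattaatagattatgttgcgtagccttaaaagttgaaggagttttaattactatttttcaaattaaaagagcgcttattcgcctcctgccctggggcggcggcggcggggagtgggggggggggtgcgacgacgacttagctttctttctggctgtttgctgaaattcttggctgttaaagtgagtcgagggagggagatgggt
Flt1: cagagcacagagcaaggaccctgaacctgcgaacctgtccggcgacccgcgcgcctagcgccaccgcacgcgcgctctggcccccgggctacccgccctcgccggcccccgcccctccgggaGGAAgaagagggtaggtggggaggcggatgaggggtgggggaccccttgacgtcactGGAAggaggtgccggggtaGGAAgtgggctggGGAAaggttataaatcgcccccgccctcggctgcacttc
They lie at chr16:18776597-18776846 on the plus strand, chr4:94739039-94739288 on the plus strand, chr16:95586594-95586843 on the minus strand and chr5:147726012-147726261 on the minus strand. The core was present in 16 of the 18 matched members, with at most 8 matches in one window, against 93.4% of 27025 promoters with a median of 3 matches. Cldn5 and Erg had 0 matches, Tek had 2 and Flt1 had 4. So short a motif occurs in nearly every promoter, and the match describes letters and not binding.

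The clearest difference of the endothelial genes lay between the mutant groups. In knockout against D489V, 26 of the 38 members were lower in knockout (limma adjusted p under 0.05) and 0 were higher, where 10.3% of 15299 genes tested were lower and 10.5% higher. The median difference of the members was -0.53 on the log2 scale, ranging from -1.72 for Bcl6b to 0.03 for Sox7, against a median of 0.00 over all genes. For 20 members the highest knockout lay below the lowest D489V sample, where 6.7% of all genes did so. The control columns were identical in both deposited tables and the samples shared one scale, which allowed this comparison.

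**Figure D1:**
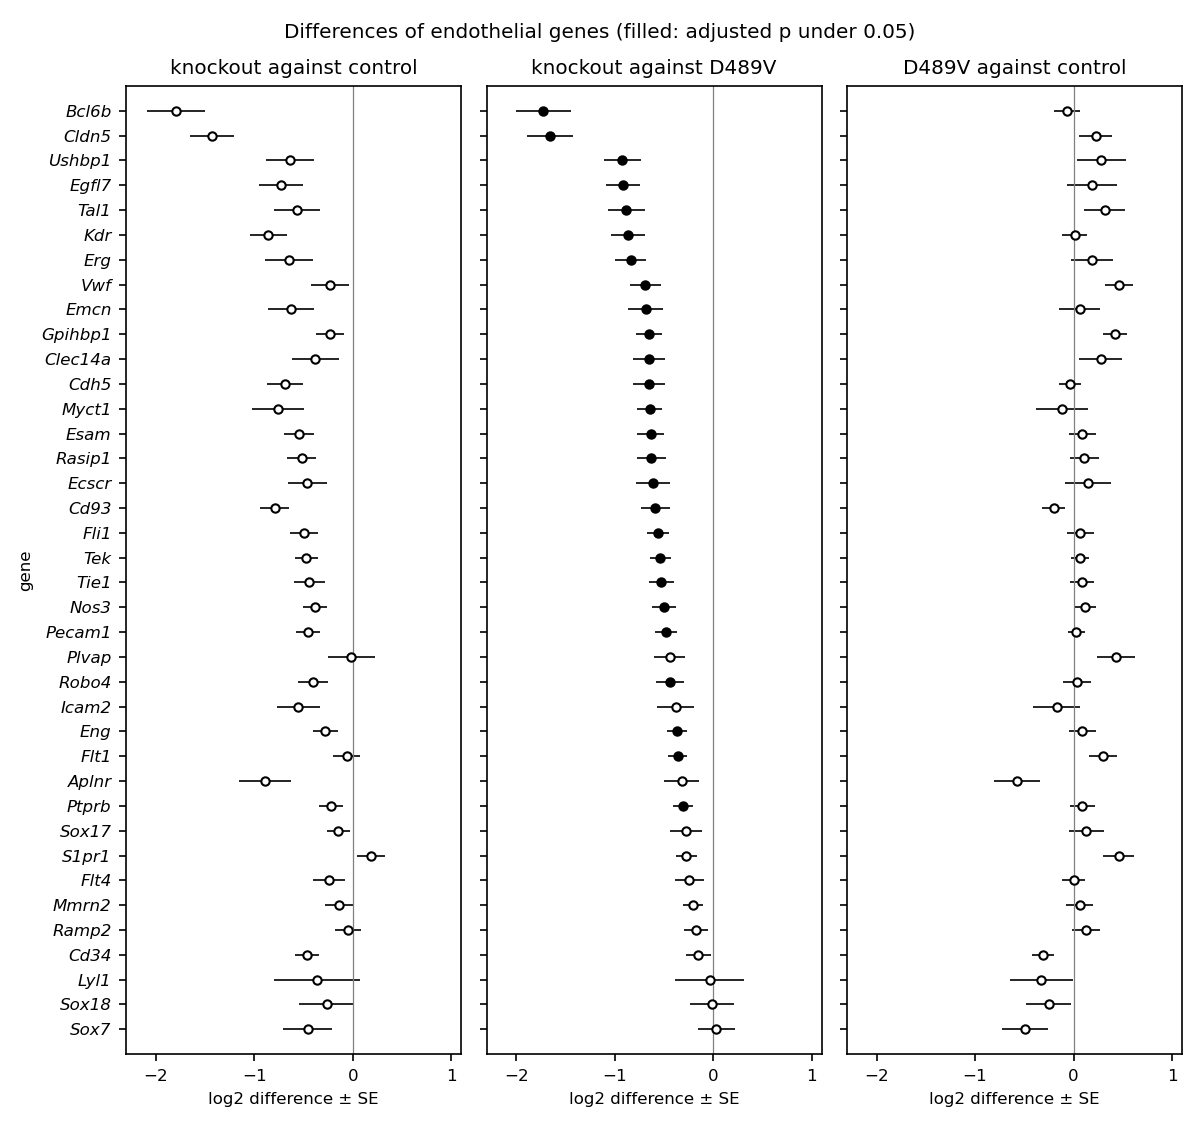
Log2 difference ± SE (x axis) of each of the 38 genes (y axis), with 5 samples per group, in knockout against control, knockout against D489V and D489V against control. Filled points have a limma adjusted p under 0.05: 26 genes in the middle panel, all to the left of 0, and 0 genes in the outer panels, where knockout against control still lies left of 0 for 37 genes.

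Against control, knockout muscle had lower mean log2 values for 37 of the 38 genes, with a median difference of -0.46 against 0.01 over 15234 genes tested, whose central 50% lay between -0.21 and 0.19. None of the 38 passed the limma threshold, where 1 gene of all, 0.00656%, did, and the smallest adjusted p of a member was 0.116. At an unadjusted p under 0.05, 23 members were lower and 0 higher, where 7.42% of all genes were lower and 7.65% higher. The groups did not overlap for 6 members, Bcl6b, Cldn5, Kdr, Cd93, Tek and Pecam1, all lower in knockout, where 1.25% of all genes did so. Ordered by unadjusted p among the genes tested, Cldn5 stood at position 5, Bcl6b at 6, Cd93 at 16 and Kdr at 35.

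In D489V against control the members lay near 0, with a median log2 difference of 0.09 and a range of -0.58 to 0.46, against a median of 0.00 over 15339 genes. That median rested on single libraries: it was 0.18 without control 1, 0.04 without control 3, 0.03 without control 4, 0.03 without control 5, 0.04 without D489V 2 and 0.05 without D489V 3. Of the 38, 28 had a positive difference and 0 were called, where 9 genes of all, 0.0587%, were called, and the smallest adjusted p of a member was 0.267. At an unadjusted p under 0.05, 4 members were higher, where 5.37% of all genes were, and 2 were lower, where 4.06% were. The former were Gpihbp1 at 0.42, Vwf at 0.46, S1pr1 at 0.46 and Plvap at 0.43, and the latter Cd34 at -0.31 and Aplnr at -0.58, on the log2 scale. No member had groups that did not overlap, where 2.16% of all genes did. Each pair of these comparisons shares 1 group of 5 samples.

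**Figure D2:**
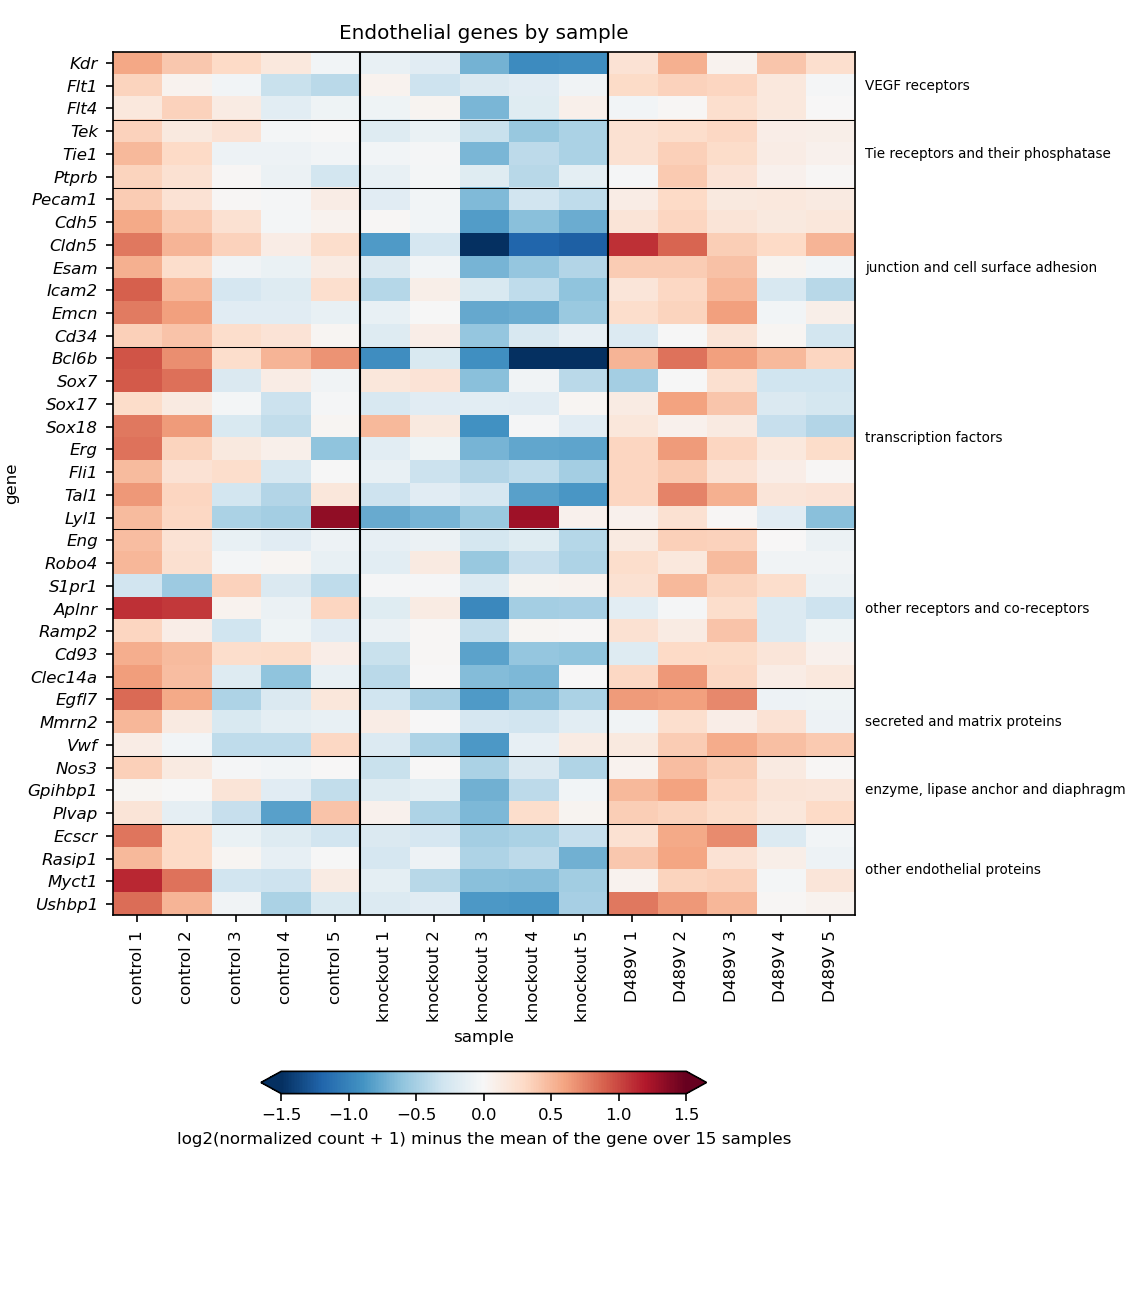
Each row is a gene (y axis, grouped by role), each column a sample (x axis), and the colour gives log2(normalized count + 1) minus the mean of that gene over the 15 samples, with colours ending at -1.5 and 1.5. Knockouts 3 to 5 are blue in most rows, controls 1 and 2 red, and Bcl6b and Cldn5 are the darkest rows of the knockouts.

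Samples of one group differed among themselves in a way many members shared. The median deviation of the 38 genes from their own mean, on the log2 scale, was 0.50, 0.31, -0.03, -0.15 and -0.01 in controls 1 to 5, -0.18, -0.05, -0.64, -0.39 and -0.44 in knockouts 1 to 5, and 0.23, 0.36, 0.32, 0.10 and 0.01 in D489V 1 to 5. Knockouts 3 to 5 lay below every other sample, and knockouts 1 and 2 lay near controls 3 to 5, so knockout and control overlapped while knockout and D489V did not. Controls 1 and 2 were both above controls 3 to 5 for 31 of the 38 genes, knockouts 1 and 2 above knockouts 3 to 5 for 22, and D489V 1 to 3 above D489V 4 and 5 for 24, divisions that were chosen after the values had been seen. Control 1 was the highest of the 15 samples for 22 genes and knockout 3 the lowest for 19.

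Of the VEGF receptors, Kdr (VEGFR2, the main signalling receptor for VEGF-A, ENSMUSG00000062960, GRCm38 chromosome 5, 75932827 to 75978458, minus strand) was 43.6% lower on average in knockout than in control and 43.9% lower than in D489V. Its normalized count was 3631, 3233, 2999, 2710 and 2371 in controls 1 to 5, 2246, 2158, 1486, 1260 and 1278 in knockouts 1 to 5, and 2832, 3520, 2516, 3258 and 2886 in D489V 1 to 5. Every knockout lay below every control and every D489V sample, with knockouts 3 to 5 far below knockouts 1 and 2. The log2 difference was -0.86 ± 0.18 (SE), limma adjusted p 0.227, against control and -0.87 ± 0.17 (SE), limma adjusted p 0.00778, against D489V. Flt1, which binds VEGF and limits its action, was 1449 to 2429 in controls, 1547 to 1988 in knockouts and 1902 to 2453 in D489V, and was lower in knockout than in D489V by the same test (-0.36 ± 0.10 (SE), limma adjusted p 0.0232) but had overlapping groups. Its knockout and control means were 1749 ± 172 and 1853 ± 395 (SD, n = 5). Flt4, the VEGF-C receptor of lymphatic and some blood vessels, was 215 to 305 in controls, 149 to 254 in knockouts and 234 to 287 in D489V, and no comparison called it.

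All 3 genes of the angiopoietin receptor system were lower in knockout than in D489V, where 10.3% of all genes tested were. Tek encodes TIE2, the angiopoietin receptor that keeps vessels quiescent (ENSMUSG00000006386, chromosome 4, 94739289 to 94874976, plus strand). Its normalized count was 1111, 969, 1016, 860 and 870 in controls 1 to 5, 763, 815, 695, 587 and 629 in knockouts 1 to 5, and 1027, 1053, 1087, 938 and 928 in D489V 1 to 5. No knockout reached any sample of either other group, and the difference was -0.54 ± 0.10 (SE), limma adjusted p 0.00706, against D489V and -0.47 ± 0.11 (SE), limma adjusted p 0.243, against control. Tie1, the partner receptor of TIE2, read 3237, 2834, 2187, 2184 and 2232 in controls 1 to 5, 2234, 2285, 1435, 1754 and 1652 in knockouts 1 to 5, and 2699, 2946, 2799, 2480 and 2402 in D489V 1 to 5. Its knockouts lay below every D489V sample, but knockouts 1 and 2 were level with controls 3 to 5, and the difference from D489V was -0.53 ± 0.13 (SE), limma adjusted p 0.0167. Ptprb, the phosphatase that restrains TIE2, was 1600 to 2428 in controls, 1451 to 1891 in knockouts and 1911 to 2538 in D489V, with a difference of -0.31 ± 0.10 (SE), limma adjusted p 0.0470, against D489V, and it lost the call under 14 of 23 alternatives.

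Among the 7 junction and adhesion genes, 5 were lower in knockout than in D489V, where 10.3% of all genes tested were, and Cldn5 stood out by size. Cldn5 is the tight junction claudin of endothelium (ENSMUSG00000041378, chromosome 16, 18776847 to 18778262, plus strand). Its normalized count was 1719, 1407, 1264, 1069 and 1186 in controls 1 to 5, 548, 835, 318, 435 and 423 in knockouts 1 to 5, and 2119, 1812, 1277, 1216 and 1406 in D489V 1 to 5. The highest knockout, knockout 2, stayed below the lowest control and the lowest D489V sample, and D489V 1 and 2 exceeded every control. The mean was 61.5% lower than in control (-1.43 ± 0.22 (SE), limma adjusted p 0.116) and 67.3% lower than in D489V (-1.66 ± 0.23 (SE), limma adjusted p 0.00243).

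The other junction genes differed less. Cdh5 (VE-cadherin, ENSMUSG00000031871, chromosome 8, 104101625 to 104144511, plus strand) read 6224, 5504, 4940, 4131 and 4362 in controls 1 to 5, 4246, 4089, 2354, 2736 and 2511 in knockouts 1 to 5, and 4813, 5256, 4815, 4675 and 4729 in D489V 1 to 5. Knockouts 3 to 5 were well below every other sample, knockout 2 lay just below the lowest control and knockout 1 within the control range, and the difference from D489V was -0.65 ± 0.16 (SE), limma adjusted p 0.0172. Pecam1 (CD31, ENSMUSG00000020717, chromosome 11, 106654217 to 106750628, minus strand), the classic surface marker of endothelium, read 4061, 3652, 3156, 3084 and 3391 in controls 1 to 5, 2779, 3033, 1974, 2561 and 2401 in knockouts 1 to 5, and 3372, 3862, 3468, 3496 and 3429 in D489V 1 to 5. Knockout 2, the highest knockout, was just under control 4, the lowest control, so that the groups did not overlap, and the difference was -0.48 ± 0.11 (SE), limma adjusted p 0.0131, against D489V and -0.45 ± 0.12 (SE), limma adjusted p 0.280, against control.

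Esam, an adhesion molecule of endothelial tight junctions, read 1922, 1596, 1285, 1240 and 1446 in controls 1 to 5, 1144, 1291, 823, 888 and 984 in knockouts 1 to 5, and 1727, 1739, 1802, 1373 and 1291 in D489V 1 to 5. Knockouts 3 to 5 were the lowest samples, while knockout 2 lay level with the lower samples of the other groups, and the difference from D489V was -0.63 ± 0.14 (SE), limma adjusted p 0.0120. Emcn, the sialomucin endomucin of capillaries and veins, read 739, 658, 382, 382 and 398 in controls 1 to 5, 398, 428, 252, 256 and 291 in knockouts 1 to 5, and 515, 540, 657, 419 and 455 in D489V 1 to 5. Controls 1 and 2 and D489V 3 were high, knockouts 1 and 2 lay at or just above controls 3 to 5, and the difference from D489V was -0.69 ± 0.17 (SE), limma adjusted p 0.0196. Icam2, an adhesion ligand for leukocytes, was 244 to 541 in controls, 190 to 308 in knockouts and 218 to 411 in D489V. Cd34, a sialomucin of capillary endothelium and progenitors, was 2370 to 3121 in controls, 1551 to 2480 in knockouts and 1918 to 2656 in D489V. Neither was called in any comparison.

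**Figure D3:**
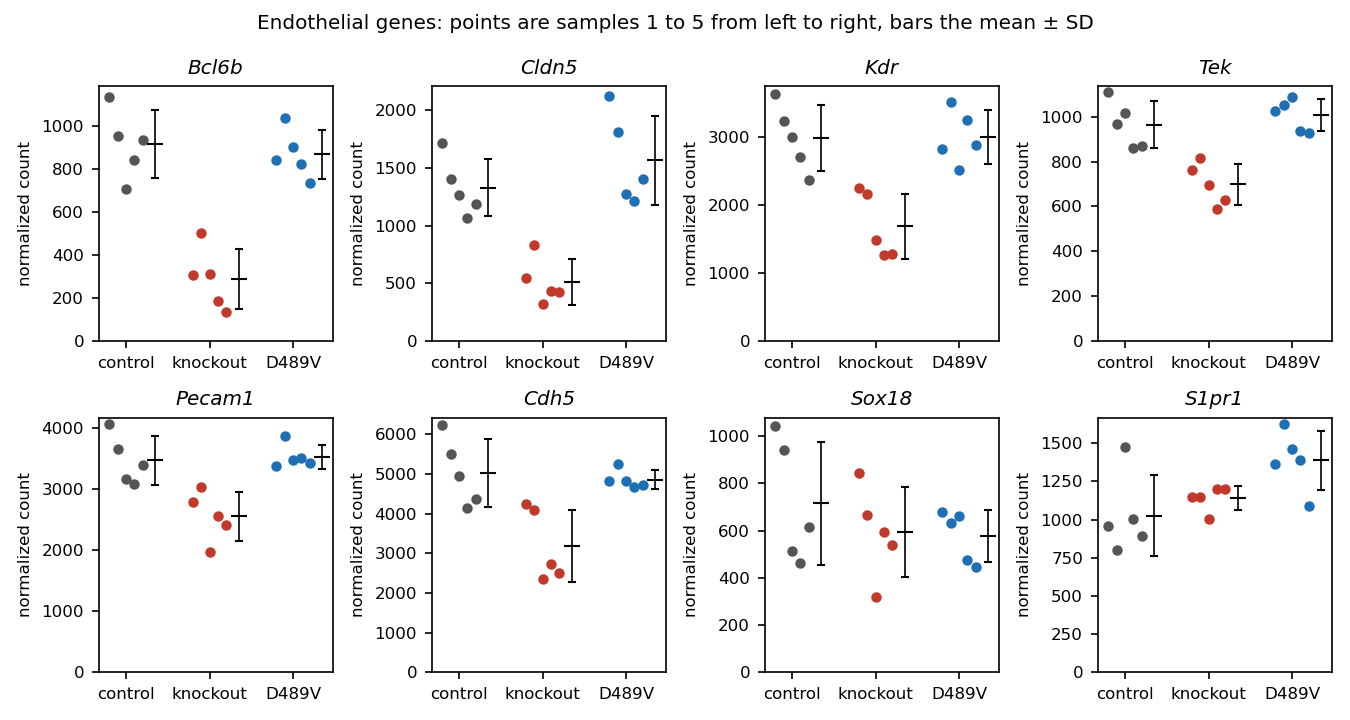
Normalized count (y axis, from 0) of 8 endothelial genes in each sample, with points for replicates 1 to 5 from left to right in each group (x axis) and the mean ± SD beside them. For Bcl6b, Cldn5, Kdr, Tek and Pecam1 every knockout lies below every control and D489V sample, for Cdh5 knockout 1 overlaps the controls, and for Sox18 and S1pr1 the knockouts lie among the other groups.

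Of the 8 transcription factors, 4 were lower in knockout than in D489V, where 10.3% of all genes tested were, and the SOX factors were not among them. Bcl6b, a zinc finger repressor enriched in endothelium (ENSMUSG00000000317, chromosome 11, 70224128 to 70229798, minus strand), had the largest difference of all 38 genes against both control and D489V. Its normalized count was 1135, 954, 708, 839 and 935 in controls 1 to 5, 308, 500, 310, 186 and 134 in knockouts 1 to 5, and 839, 1037, 903, 822 and 735 in D489V 1 to 5. The knockouts were far below both other groups, with knockouts 4 and 5 lowest and knockout 2 highest. Its mean was 68.5% lower than in control (-1.79 ± 0.29 (SE), limma adjusted p 0.150) and 66.8% lower than in D489V (-1.72 ± 0.28 (SE), limma adjusted p 0.00400). Controls and D489V overlapped throughout (-0.07 ± 0.13 (SE), limma adjusted p 0.902).

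Erg, an ETS factor that maintains endothelial identity (ENSMUSG00000040732, chromosome 16, 95359169 to 95586593, minus strand), read 848, 604, 533, 506 and 316 in controls 1 to 5, 431, 461, 296, 279 and 278 in knockouts 1 to 5, and 599, 749, 599, 538 and 582 in D489V 1 to 5. Control 1 was high and control 5 as low as the knockouts, and the knockouts lay below every D489V sample, with a difference of -0.84 ± 0.16 (SE), limma adjusted p 0.00713. Fli1, a close ETS relative of Erg, read 466, 391, 404, 284 and 333 in controls 1 to 5, 311, 268, 246, 258 and 235 in knockouts 1 to 5, and 418, 439, 391, 360 and 340 in D489V 1 to 5. Its knockouts lay below every D489V sample and overlapped the controls through control 4, and the difference from D489V was -0.56 ± 0.11 (SE), limma adjusted p 0.00752. Tal1, a basic helix-loop-helix factor of blood and endothelial precursors, read 148, 118, 78, 69 and 106 in controls 1 to 5, 76, 84, 79, 53 and 51 in knockouts 1 to 5, and 118, 159, 137, 107 and 109 in D489V 1 to 5. Knockouts 4 and 5 were lowest, and the difference from D489V was -0.88 ± 0.19 (SE), limma adjusted p 0.0105.

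The SOX factors of subgroup F, which direct arterial and lymphatic fate, overlapped between all groups. Sox7 was 240 to 531 in controls, 181 to 322 in knockouts and 196 to 331 in D489V. Sox17 was 403 to 609 in controls, 427 to 516 in knockouts and 420 to 769 in D489V. Sox18 was 465 to 1043 in controls, 321 to 845 in knockouts and 446 to 678 in D489V. In knockout against D489V their differences were 0.03 ± 0.19, -0.28 ± 0.16 and -0.01 ± 0.22 (SE), none of them called by limma. Lyl1, the relative of Tal1, was 87 to 314 in controls, 73 to 301 in knockouts and 80 to 145 in D489V. Its highest samples were control 5 at 314 and knockout 4 at 301, the same libraries that held the highest leukocyte marker sums, 9088 and 7934, and the part of leukocytes in its level was not tested.

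Of 7 other receptors, 4 were lower in knockout than in D489V, where 10.3% of all genes tested were. None of the 4, Cd93, Clec14a, Eng and Robo4, kept the call without D489V 3 and knockout 3, or without control 5 and knockouts 3 to 5. Cd93, a C-type lectin receptor that binds the matrix protein MMRN2 (ENSMUSG00000027435, chromosome 2, 148436640 to 148443563, minus strand), read 2621, 2498, 2160, 2187 and 1936 in controls 1 to 5, 1434, 1829, 1035, 1202 and 1181 in knockouts 1 to 5, and 1572, 2214, 2205, 2044 and 1886 in D489V 1 to 5. Every knockout lay below every control, D489V 1 lay between knockouts 1 and 2, and the difference was -0.79 ± 0.15 (SE), limma adjusted p 0.173, against control and -0.59 ± 0.15 (SE), limma adjusted p 0.0198, against D489V. Clec14a, a related lectin receptor, read 423, 377, 239, 180 and 254 in controls 1 to 5, 206, 274, 174, 172 and 275 in knockouts 1 to 5, and 341, 429, 340, 296 and 307 in D489V 1 to 5. Controls 1 and 2 were high, knockouts 1, 2 and 5 came within the control range, and the difference from D489V was -0.65 ± 0.16 (SE), limma adjusted p 0.0189.

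Eng, the TGF-beta co-receptor endoglin, was 1689 to 2631 in controls, 1409 to 1793 in knockouts and 1796 to 2441 in D489V (-0.37 ± 0.11 (SE), limma adjusted p 0.0313), and Robo4, a roundabout receptor that stabilizes vessels, was 809 to 1238 in controls, 593 to 959 in knockouts and 844 to 1219 in D489V (-0.44 ± 0.14 (SE), limma adjusted p 0.0480), with both differences against D489V. These calls were less stable, since Eng lost its call under 11 and Robo4 under 14 of 23 alternatives. S1pr1, the sphingosine-1-phosphate receptor that tightens junctions, was 798 to 1477 in controls, 1004 to 1203 in knockouts and 1091 to 1625 in D489V, and was the 1 member with a higher mean log2 value in knockout than in control (0.18 ± 0.15, SE). Aplnr, the apelin receptor, was 749 to 1700 in controls, 405 to 863 in knockouts and 640 to 954 in D489V. Controls 1 and 2, at 1700 and 1655, stood apart from every other sample, and the log2 difference from control was -0.90 ± 0.26 (SE) in knockout and -0.58 ± 0.23 (SE) in D489V, neither called. Ramp2, a co-receptor for adrenomedullin, was 593 to 912 in controls, 570 to 750 in knockouts and 634 to 982 in D489V.

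Of the secreted proteins, Egfl7, an angiogenic matrix factor that hosts the miR-126 gene, read 2663, 2189, 1070, 1273 and 1656 in controls 1 to 5, 1203, 1057, 821, 938 and 1064 in knockouts 1 to 5, and 2291, 2269, 2441, 1403 and 1408 in D489V 1 to 5. Controls 1 and 2 and D489V 1 to 3 were high, and no knockout reached D489V 4, the lowest of its group. The difference from D489V was -0.92 ± 0.17 (SE), limma adjusted p 0.00693. Vwf, von Willebrand factor, the platelet-binding protein stored in endothelial granules, read 1293, 1165, 922, 917 and 1491 in controls 1 to 5, 1040, 866, 658, 1096 and 1306 in knockouts 1 to 5, and 1321, 1557, 1758, 1634 and 1572 in D489V 1 to 5. Each D489V sample lay above each knockout, control 5 lay among D489V, and the difference was -0.69 ± 0.16 (SE), limma adjusted p 0.0141, against D489V. D489V differed from control by 0.46 ± 0.14 (SE), limma adjusted p 0.316, which was not called. Mmrn2, the matrix ligand of CD93, was 801 to 1324 in controls, 770 to 1015 in knockouts and 894 to 1125 in D489V and was not called.

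Gpihbp1, the capillary anchor of lipoprotein lipase (chromosome 15, 75596628 to 75599481, plus strand), read 1142, 1113, 1281, 993 and 865 in controls 1 to 5, 979, 1011, 680, 853 and 1088 in knockouts 1 to 5, and 1567, 1697, 1399, 1282 and 1267 in D489V 1 to 5. D489V 1 to 4 exceeded every control, knockouts overlapped the controls, and the differences were -0.65 ± 0.13 (SE), limma adjusted p 0.00867, for knockout against D489V and 0.42 ± 0.12 (SE), limma adjusted p 0.267, for D489V against control. Nos3, the endothelial nitric oxide synthase, was 654 to 867 in controls, 486 to 680 in knockouts and 682 to 928 in D489V, and was lower in knockout than in D489V (-0.50 ± 0.12 (SE), limma adjusted p 0.0167) without overlap. Its exons share 1040 bases with an antisense transcript, Gm15587 (mean 2.07), those of Egfl7 share 64 with Agpat2 and those of Eng 61 with Fpgs on the opposite strand. Whether the counting used strand is not given in the sources used here, so reads in these stretches are uncertain. On the same strand, where strand would not separate them, Ramp2 shares 1103 bases with Vps25 (mean 5.47) and Rasip1 654 with Izumo1 (mean 7.27). Rasip1 also shares 498 with A030001D20Rik (mean 85.7) on the opposite strand. Plvap, the protein of fenestral diaphragms, was 348 to 826 in controls, 384 to 734 in knockouts and 691 to 795 in D489V and was not called.

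The 4 remaining endothelial proteins were each lower in knockout than in D489V, where 10.3% of all genes tested were. Ushbp1, a harmonin-binding protein, read 3767, 3005, 2042, 1522 and 1807 in controls 1 to 5, 1834, 1876, 1158, 1149 and 1493 in knockouts 1 to 5, and 3647, 3322, 2987, 2130 and 2191 in D489V 1 to 5. Controls 1 and 2 and D489V 1 to 3 were high, each knockout was below each D489V sample, and the difference was -0.92 ± 0.19 (SE), limma adjusted p 0.00864. Myct1 read 685, 551, 255, 251 and 339 in controls 1 to 5, 282, 234, 202, 200 and 218 in knockouts 1 to 5, and 323, 395, 399, 305 and 353 in D489V 1 to 5. Its knockouts varied little and lay below every D489V sample, while controls 1 and 2 were far above the other controls, and the difference from D489V was -0.65 ± 0.13 (SE), limma adjusted p 0.00735.

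Rasip1, a RAS-interacting protein needed for vessel lumens, read 984, 868, 720, 645 and 699 in controls 1 to 5, 590, 666, 510, 537 and 426 in knockouts 1 to 5, and 932, 1064, 821, 747 and 665 in D489V 1 to 5. Knockout 2 reached D489V 5, and the difference was -0.63 ± 0.15 (SE), limma adjusted p 0.0144. Ecscr, a surface regulator of endothelial migration, read 444, 311, 236, 221 and 207 in controls 1 to 5, 218, 213, 178, 182 and 199 in knockouts 1 to 5, and 297, 376, 416, 220 and 246 in D489V 1 to 5. Knockout 1 lay just below D489V 4, control 1 was high, and the difference was -0.61 ± 0.17 (SE), limma adjusted p 0.0278, a call that was lost under 9 of 23 alternatives.

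The members did not keep one proportion to Pecam1. Levels are given as normalized counts per 100 of Pecam1 in the same sample. This ratio and the set of genes were chosen after the values had been seen, and are given with no test. Cldn5 and Bcl6b, which had the largest differences, were low in every knockout, and the groups of the other genes overlapped. Cldn5 stood at 38.1 ± 3.30 per 100 of Pecam1 in controls, 19.6 ± 4.63 in knockouts and 44.5 ± 11.3 in D489V (SD, n = 5). Its knockouts, at 16.1 to 27.5, lay below the lowest control at 34.7 and the lowest D489V sample at 34.8. Bcl6b stood at 26.3 ± 2.24 in controls, 11.2 ± 4.88 in knockouts and 24.5 ± 2.14 in D489V, and its highest knockout, at 16.5, was below every other sample. Kdr stood at 86.2 ± 9.51 in controls, 65.9 ± 13.9 in knockouts and 85.0 ± 8.09 in D489V. Its groups overlapped, with knockouts at 49.2 to 80.8 and the lowest control at 69.9. Erg stood at 16.0 ± 4.17, 13.6 ± 2.21 and 17.4 ± 1.44 in the same order, also with overlap. Tek stood at 27.9 ± 2.53, 27.7 ± 4.53 and 28.6 ± 2.14 in the same order, with overlapping groups. The ratio of Cdh5 was 145 ± 12.5, 124 ± 20.2 and 138 ± 3.35, and its groups overlapped too. Pecam1 was itself 26.5% lower on average in knockout than in control, so a gene that fell less tends to a higher ratio and one that fell more to a lower ratio. Plvap and Ramp2, 2.5% and 4.0% lower, fell less too but were outside the chosen set. Within that set, ratios that were higher on average in knockout than in control were those of S1pr1, at 45.4 ± 5.63 against 30.2 ± 10.1, Flt1, at 70.0 ± 12.5 against 53.2 ± 7.22, and Vwf, at 39.3 ± 9.93 against 33.3 ± 6.07. In D489V these 3 stood at 39.3 ± 4.29, 63.8 ± 5.79 and 44.6 ± 4.77.

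**Figure D4:**
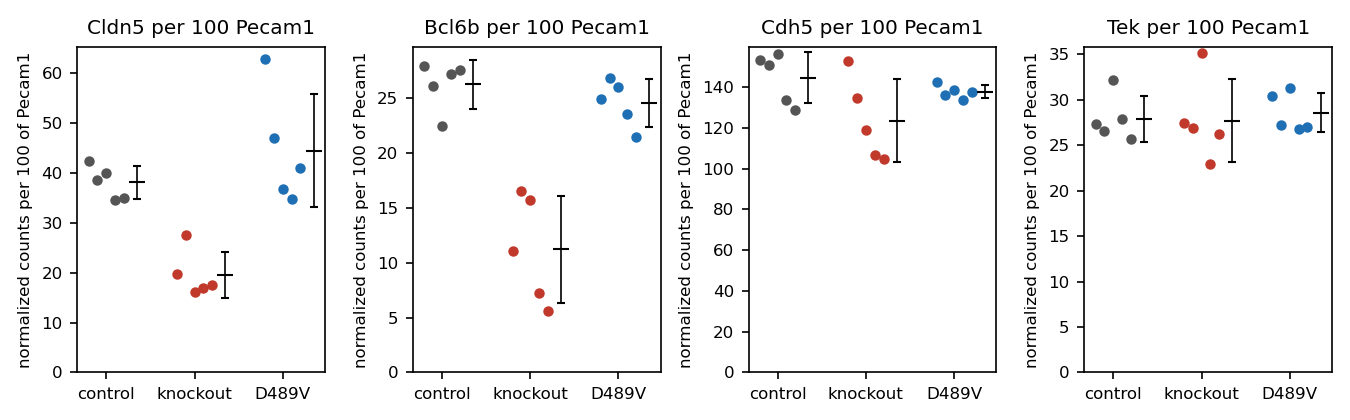
Normalized counts of Cldn5, Bcl6b, Cdh5 and Tek per 100 normalized counts of Pecam1 (y axis, from 0) by group (x axis), with points for replicates 1 to 5 from left to right and the mean ± SD. The knockouts lie below every other sample for Cldn5 and Bcl6b and overlap the other groups for Cdh5 and Tek.

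Other endothelial genes were counted in the same way, from lists of general and of vessel-type genes. Of 32 further pan-endothelial genes, 15 were lower and 0 higher in knockout than in D489V, where 10.3% of all genes tested were lower and 10.5% higher. Their differences had a median of -0.46 and ran from -1.11 to 0.57, with 27 below 0, and 0 were called against control in either mutant. In knockout against D489V, 7 of 11 arterial genes, 4 of 7 venous genes, 7 of 11 capillary genes and 3 of 8 tip cell genes were lower. None of these was higher, and the shares of all genes were the same. Of the arterial genes, the kinase Bmx read 16 to 22 in knockout and 27 to 45 in D489V, with no overlap, and the Notch ligand Dll4 averaged 344 ± 88.1 and 611 ± 141 (SD, n = 5). The ephrin Efnb2 averaged 300.4 ± 46.9 and 513 ± 74.2, and the Notch ligand Jag1 298 ± 35.6 and 488 ± 16.3. The venular selectin Selp averaged 22.2 ± 8.53 and 85.8 ± 17.5. Of the 6 lymphatic endothelial genes tested, 0 were called, with a median of 0.05, and Ccl21a was listed at 0 in all 15 samples.

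Markers of some other cells moved with the mutant comparison as well, where 10.3% of all genes tested were lower and 10.5% higher. In knockout against D489V, 6 of 7 adipocyte markers (median -1.99), 6 of 6 Schwann cell markers (-1.12), 5 of 5 tested erythroid markers (-1.67), 4 of 11 mural cell markers (-0.40) and 7 of 9 tested immediate early genes (-1.31) were lower, while 1 gene of the mural list, Abcc9, was higher. Which cells gave the Abcc9 counts, 3802 to 6414 in controls, was not tested. Higher in knockout were also 1 of 6 proliferation genes, Top2a at 132 ± 45.6 against 49.0 ± 21.1 (SD, n = 5), with a median of 0.78 for the list, and 1 of 5 satellite cell markers, Cdh15 at 836 ± 88.9 against 687 ± 33.5. Top2a averaged 183 ± 86.5 in controls, above both mutants, and Cdh15 742 ± 104. Against control the proliferation list had a median of -0.73 in knockout, with 0 called. In D489V its median was -1.53, with 2 of 6 called lower, where 0.0587% of all genes were called. Between the mutants 0 of 9 tested leukocyte markers were called, with a median of 1.14. Also without a call were 7 fibroblast markers (median -0.11), 6 slow fibre markers (-0.52), 7 fast fibre markers (-0.05) and 2 tested platelet markers (-0.35). In knockout against control 0 genes of these lists were called, where 0.00656% of all genes were. Medians there were -0.69 for immediate early, -0.65 for Schwann cell, -0.37 for erythroid and -0.31 for mural genes. Platelet, fibroblast, adipocyte and slow fibre markers stood at -0.24, -0.23, -0.18 and -0.14. Satellite cell, fast fibre and leukocyte markers stood at -0.03, -0.02 and 0.79. The mural marker Kcnj8 read 449 to 518 in knockouts and 681 to 794 in controls, with no overlap. It stood at position 3 by unadjusted p, ahead of every endothelial member, and was not called (limma adjusted p 0.0787). The adipocyte sum was 1766 to 33104 in controls, 6121 to 9823 in knockouts and 16102 to 59436 in D489V. The erythroid sum was 5682 to 8420, 3175 to 8038 and 12462 to 22164, and the mural sum 24774 to 30067, 23194 to 25749 and 25554 to 32139, in the same order. D489V 3, with an adipocyte sum of 16102, less than that of controls 1 to 3, had a median endothelial deviation of 0.32. Control 4, with the lowest adipocyte sum of the 15 samples, stood at -0.15. Control 1, with the highest adipocyte sum of the controls, 33104, had the highest deviation of the 15 samples, 0.50. The knockouts, with sums of 6121 to 9823, stood at -0.64 to -0.05. The part of these other cells in the endothelial differences was not tested.

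Capillary genes that adipocytes also express, Fabp4 and Aqp7, were among the 4 with the largest differences of their list, with Btnl9 and Car4. Fabp4 averaged 8708 ± 2295 in knockout and 26900 ± 9786 in D489V (SD, n = 5), and Btnl9 253.6 ± 65.8 and 1027 ± 393. Within the controls Btnl9 was 1223, 793 and 781 in controls 1 to 3, where the adipocyte sums were 17764 to 33104, and 319 and 359 in controls 4 and 5, where they were 1766 and 3266. The part of adipocytes in these values was not tested.

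**Figure D5:**
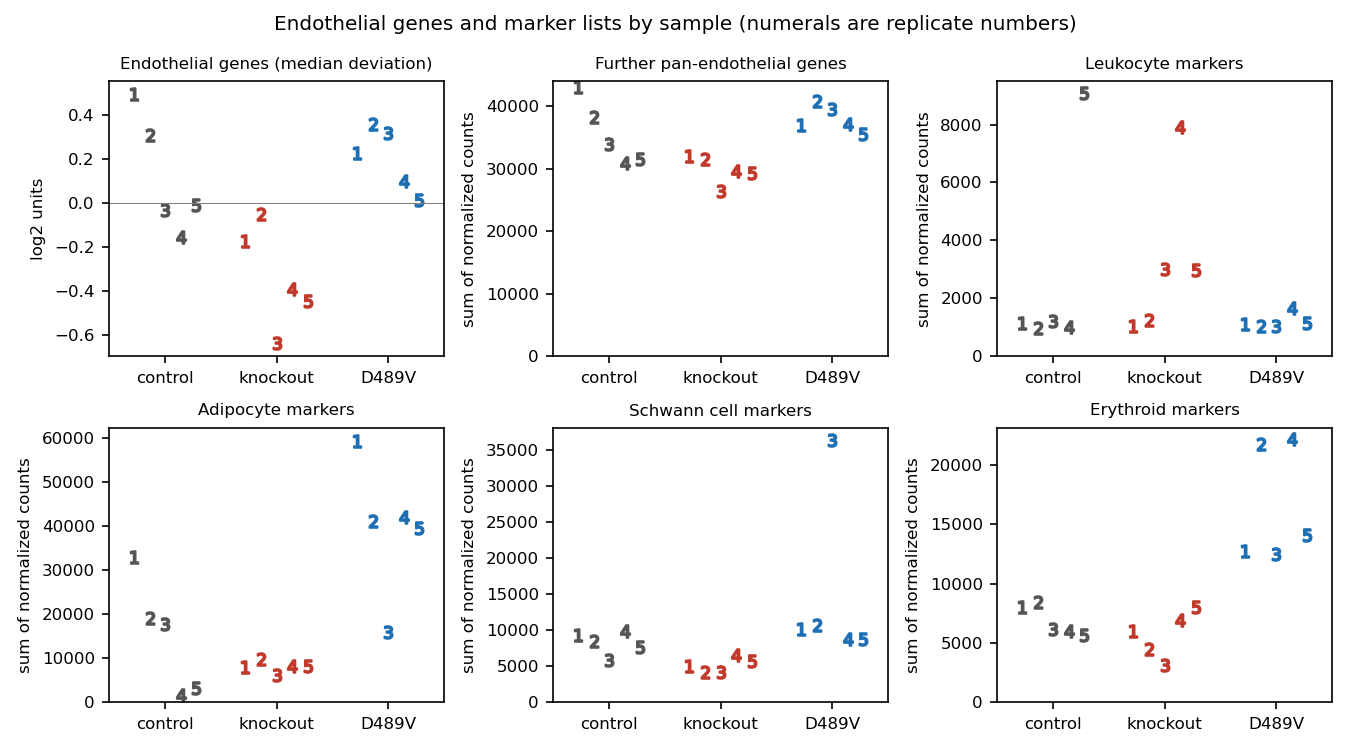
Each panel shows the 15 samples by group (x axis), with numerals for the replicate. The first panel gives the median deviation of the 38 endothelial genes in log2 units, and the others the summed normalized counts (y axis, from 0) of further pan-endothelial genes and of leukocyte, adipocyte, Schwann cell and erythroid markers. Knockouts 3 to 5 are lowest in the first panel and, with control 5, highest for leukocyte markers.

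Knockouts 3 to 5, which were lowest for the endothelial genes, also held high sums of slow fibre markers, 103066 to 163879, against 3439 and 15231 in knockouts 1 and 2. Control 5 and D489V 3 held similarly high slow fibre sums, 162300 and 181923, with endothelial medians of -0.01 and 0.32. Controls 1 and 2, with slow fibre sums of 13891 and 42284, had endothelial medians of 0.50 and 0.31. The part of fibre type in the endothelial values was not tested. Without control 5 and knockouts 3 to 5, knockouts 1 and 2 alone stood against D489V and 3 members kept their call, Bcl6b, Cldn5 and Vwf, with log2 differences of -1.13, -1.18 and -0.72 and limma adjusted p of 0.0220, 0.0336 and 0.0274. The median of the 38 was then -0.35 against D489V and -0.29 against control, and in this smaller set 2.58% of all genes were lower. Of the 26 differences between the mutants, 14 shrank by over 1.5 times, most of all Cdh5, from -0.65 to -0.22, Robo4, from -0.44 to -0.17, Tie1, from -0.53 to -0.23, Emcn, from -0.69 to -0.31, and Cd93, from -0.59 to -0.28. Kdr went from -0.87 to -0.44, Erg from -0.84 to -0.45, Pecam1 from -0.48 to -0.28 and Tek from -0.54 to -0.35, and the others of the 14 were Esam, Ushbp1, Rasip1, Bcl6b and Ptprb. Against control, Bcl6b went from -1.79 to -1.19, Kdr from -0.86 to -0.51 and Pecam1 from -0.45 to -0.26. Without D489V 3 and knockout 3, 15 members kept their call, with a median of -0.44, where 6.33% of all genes were lower, and Robo4, at -0.29, was the 1 difference of the 26 that shrank by over 1.5 times. These 15 were Bcl6b, Cldn5, Kdr, Tek, Pecam1, Erg, Fli1, Tal1, Egfl7, Vwf, Esam, Rasip1, Myct1, Gpihbp1 and Ushbp1.

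Against control, 3 members passed once knockout 2 was left out, where 0.0463% of all genes did. They were Bcl6b at -2.03 (limma adjusted p 0.0297), Cldn5 at -1.63 (limma adjusted p 0.0125) and Cd93 at -0.91 (limma adjusted p 0.0427). The same 3 passed when all 15 samples shared one estimate of the spread, with limma adjusted p of 0.0137, 0.0236 and 0.0455, where 0.105% of all genes did. Over all 23 alternatives the adjusted p ranged from 0.0137 to 0.703 for Bcl6b, from 0.0125 to 0.703 for Cldn5 and from 0.0427 to 0.703 for Cd93, and the sign of each difference stayed negative.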

How the data were processed

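Gene counts were normalized and rounded to whole numbers before they were deposited, per the file headers and names, so the unit is treated as a score. The submitters' processing notes list Trim Galore 0.6.0, cutadapt, FastQC, STAR 2.7.0e, DESeq2 1.26.0 and GRCm38 with no role or order. The annotation and counting tool are not given in the sources used here. All 55536 identifiers matched GENCODE M21, and the 5 control columns were identical in both tables.

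For each comparison, log2(value + 1) was modelled with limma (version 3.58.1, R 4.3.3, two-sided eBayes with a variance trend) over genes at 10 or more in at least 5 of 10 samples, with Benjamini-Hochberg adjustment over those genes and a threshold of 0.05. This scale understates changes of low genes. Read depth is unknown, so no count model was used. The steps were tested on simulated data.

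The members and gene lists were chosen with earlier results of these data known. Values in every sample are given for members called, or with groups that do not overlap, in any comparison (the 20 with the largest difference where there are more), and for Pecam1, Cdh5, Kdr, Tek and Erg. From other lists at most 4 called genes are named, by size. Lyl1, Aplnr, Abcc9, Kcnj8 and S1pr1 were singled out after their values were seen. Alternatives changed the pseudocount, filter, scaling, variance model, sample weights, replicate block and samples included.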

Additional observations from a re-analysis of the deposited data

Results flagged for a closer look

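For 4 of 117 groups of 5 values, 1 sample lay far from the others of its group (gap to the nearest over the range above 0.71), where chance gives about 1 in 20, or 5.85. Pecam1 in D489V 2 was 11.92 on the log2 scale (3862 normalized counts), against 11.72 to 11.77 in the other D489V samples. Cdh5 in D489V 2 was 12.36 (5256), against 12.19 to 12.23. Sox17 in knockout 5 was 9.01 (516), against 8.74 to 8.82 in the other knockouts. S1pr1 in knockout 3 was 9.97 (1004), against 10.16 to 10.23.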

How the results depend on the processing

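Calls of members in knockout against D489V numbered 26, all lower, and every called member stayed lower under each of the 23 alternatives. The number was 3 without control 5 and knockouts 3 to 5, where 2.58% of all genes were lower. It was 15 without D489V 3 and knockout 3, where 6.33% were lower. When single replicates were left out it was 18 to 27, where 5.21% to 11.6% were lower. Other settings gave 20 to 28, where 3.94% to 14.2% were lower. In knockout against control the number was 0, except for 3 with all 15 samples in the fit and 3 without knockout 2. Of all genes, 0.105% and 0.0463% were called under these 2 settings. The number thus ranged from 0 to 3 when single replicates were left out. In D489V against control it was 0 under each alternative, where at most 0.561% of all genes were called. The cause of these moves was not tested. No median of the members changed sign, but without control 5 and knockouts 3 to 5 the knockout median against control was -0.29 in place of -0.46, and that against D489V -0.35 in place of -0.53. In D489V against control it ranged from 0.03 to 0.18 when single replicates were left out. Of 598 single gene values in knockout against D489V, 83 lost the call and 0 reversed, most often Ptprb and Robo4.

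The samples were not treated as paired by replicate number. Same-numbered deviations correlated between -0.23 and 0.25 in knockout against control and between -0.37 and 0.35 in D489V against control. In knockout against D489V they correlated between -0.10 and 0.10. Differently numbered samples were not correlated for reference, so these values cannot decide whether the numbers pair the samples. With the number as a replicate block the calls were 0, 0 and 23, where 7.73% of all genes were lower in the last, knockout against D489V. Depth cannot be judged from normalized values, and precision rests on 5 samples a group.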
